A study of Mus musculus with 6 samples.

Results

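The genes of mucin and surface glycosylation were taken as the protein-coding genes whose symbols begin with Galnt, B3gnt, B4galt, B3galt, B4galnt, Fut, St3gal, St6gal, St8sia, Gcnt, Mgat, C1galt or A4gnt, and 91 of the 52550 genes listed fitted this rule. Of these, 60 were expressed in the colon epithelium, with at least 1 FPKM (read fragments scaled by the length of the transcript in kilobases and by the M fragments mapped) in at least 3 of 6 samples, 31 lay below this level and 7 of the 31 were listed at 0 in every sample. Expression was compared between 3 samples of *Zfp90*fl/fl mice and 3 samples of *Zfp90*ΔIEC mice, in which Villin-cre deletes the floxed *Zfp90* gene in intestinal epithelial cells. All 6 samples came from male C57BL/6 mice that carried the floxed allele, 6 to 8 weeks old by the labels, which tie this age to no time point, and 8 weeks old at the first injection by the methods of the study. They received 10 mg/kg azoxymethane (AOM), a carcinogen, and from day 5 on 3 cycles of 2% dextran sulfate sodium (DSS), which injures the colon, each of 7 days with 14 days of water, up to day 80, where the DSS concentration is that of the labels and the methods give a higher one. The question was which steps of glycan synthesis differed in expression between the genotypes in this model of colitis-associated cancer.

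Mucins are threonine- and serine-rich proteins that carry dense O-glycans, and the mucus layer of the colon is built from the secreted mucin *Muc2*. An O-glycan starts when a GALNT enzyme attaches N-acetylgalactosamine (GalNAc) to the protein, is branched into a core by C1GALT1, B3GNT6 or the GCNT enzymes, is lengthened with galactose and N-acetylglucosamine (GlcNAc), and is capped with fucose, sialic acid or a further GalNAc or GlcNAc. Many of the same enzyme families also build glycolipids and N-glycans at the cell surface, so a symbol alone does not place a gene on mucin.

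*Zfp90* itself ranged from 0.490 to 0.630 FPKM in the *Zfp90*fl/fl samples and from 0.0846 to 0.195 FPKM in the *Zfp90*ΔIEC samples (adjusted p = 0.123 by limma, without a filter on low values). The 9 epithelial markers summed to between 5999 and 6865 FPKM, while the 10 stromal markers summed to between 1.51 and 2.50 FPKM. The 18 leukocyte markers summed to between 25.2 and 54.2 FPKM, of which *Ly6g* alone gave 21.9 to 44.7, and all 18 had the lower mean in *Zfp90*ΔIEC, with *S100a8* and *S100a9* listed at 0 in all 3 *Zfp90*ΔIEC samples. Only *Ly6g* and *Cd68*, 2 of the 18, reached the level set for expression. *Zfp90*ΔIEC replicate 1 was the highest of the 6 samples in 22 of the 60 expressed members (36.7%), against 17.9% of all genes tested, and also in 5 of 10 goblet cell markers. In bulk RNA, fewer cells of a type and less RNA per cell cannot be told apart.

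Between the genotypes, no member passed the threshold of an adjusted p under 0.05 (limma, Benjamini-Hochberg adjustment over all 11564 genes tested), while 23 of all genes did (0.199%, 8 higher and 15 lower in *Zfp90*ΔIEC), or 10 without *Zfp90*fl/fl replicate 2. The smallest adjusted p among members was 0.0873, for *Gcnt3*. At an unadjusted p under 0.05 there were 13 of the 60 members, 5 higher and 8 lower in *Zfp90*ΔIEC, where the share over all genes was 14.6%. The values of the genotypes did not overlap in 11 members, where the share over all genes was 21.3%. Of these members 5 were higher in *Zfp90*ΔIEC, against 8.73% of all genes, and 6 were lower, against 12.6% of all genes. The shares without overlap (18.3% of the members, 8.33% higher and 10.0% lower) lay near their background, and are no result about the members. The share of 21.7% with an unadjusted p under 0.05 was less stable. The 13 members became 7 and 6 without *Zfp90*ΔIEC replicates 1 and 2, and stayed 13 without replicate 3. Without *Zfp90*fl/fl replicates 1, 2 and 3 they became 6, 8 and 9. The count over all genes, 1694 with all samples, was between 1295 and 1775 in these fits. The median difference over members was 0.0027 on the log2(FPKM + 1) scale, on which all differences here are given as *Zfp90*ΔIEC minus *Zfp90*fl/fl, and the median over all genes was -0.023. The median over members was -0.042 without *Zfp90*ΔIEC replicate 1 and 0.020 without *Zfp90*fl/fl replicate 1. For 55 of the 60 members the unadjusted 95% confidence interval of the difference lay within 1 log2 unit of 0, and for 41 within 0.5.

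**Figure D1:**
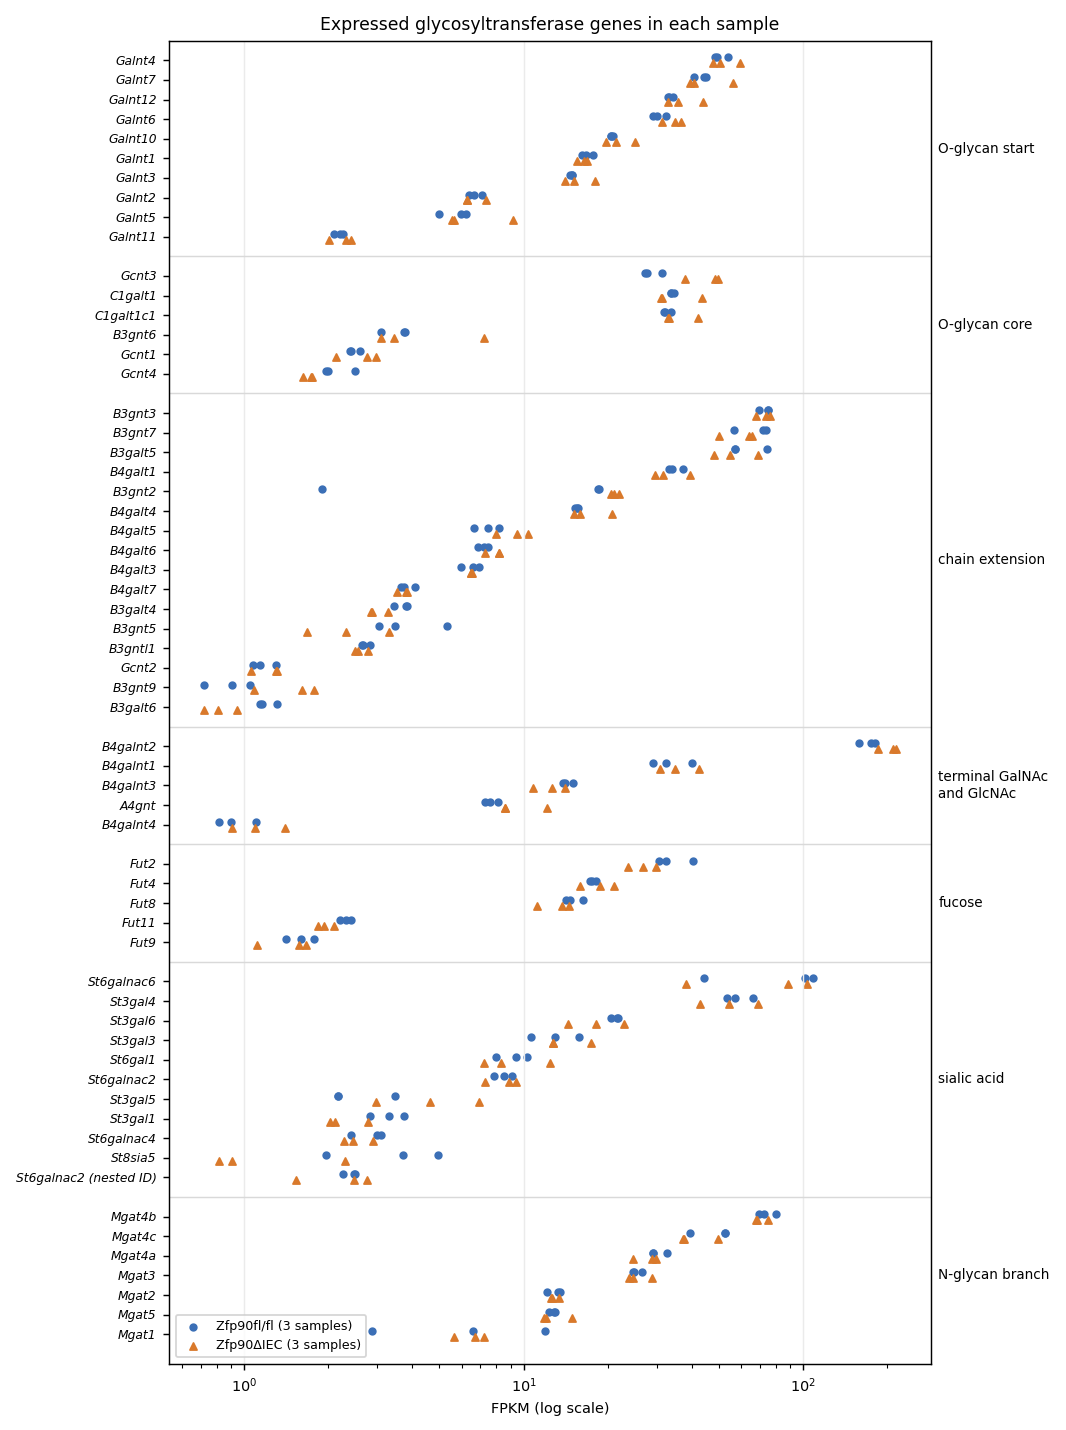
FPKM (horizontal log axis) of the 60 expressed members in each of 3 *Zfp90*fl/fl samples (blue circles) and 3 *Zfp90*ΔIEC samples (orange triangles), ordered by step of glycan synthesis and by mean level. The members run from about 1 FPKM to *B4galnt2* at 158.6 to 215.0 FPKM, and the samples of both genotypes overlap in 49 of 60 members.

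The levels spread over a wide range, with 32 members at a mean of 10 FPKM or more and 8 above 50 FPKM. *B4galnt2*, at a mean of 187.1 FPKM, led all members and was followed by *St6galnac6* (80.6), *B3gnt3* (72.7), *Mgat4b* (72.1), *B3gnt7* (63.5), *B3galt5* (60.0), *St3gal4* (57.1) and *Galnt4* (51.5). FPKM are scaled per length of transcript, so that levels of different genes can be set side by side, although the value of a gene with several transcripts also depends on how fragments were divided among them. The median coefficient of variation in *Zfp90*fl/fl was 5.67% over the 16 expressed members with 1 annotated transcript and 8.86% over the 44 with more than 1, and in *Zfp90*ΔIEC it was 12.8% and 13.9%.

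The O-glycan start was represented by 10 expressed GALNT genes of 19. *Galnt4* was the highest, and in the order of replicates 1, 2 and 3 used from here on it was at 49.2, 53.9 and 48.5 FPKM in *Zfp90*fl/fl and at 59.5, 50.5 and 47.5 FPKM in *Zfp90*ΔIEC. It lies within the locus of *Poc1b* in the annotation, which was at 4.58 to 7.22 FPKM. *Galnt7*, which acts on peptides that already carry GalNAc, followed at 44.8, 44.3 and 40.6 FPKM in *Zfp90*fl/fl and at 55.9, 39.4 and 40.7 FPKM in *Zfp90*ΔIEC. In both genes only replicate 1 of *Zfp90*ΔIEC stood above the *Zfp90*fl/fl samples.

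*Galnt6* was at 30.0, 32.3 and 29.0 FPKM in *Zfp90*fl/fl and at 36.6, 34.8 and 31.2 FPKM in *Zfp90*ΔIEC, a difference of 0.16 (95% interval -0.019 to 0.34, adjusted p = 0.395 by limma). *Galnt5* gave the largest difference of the 10 expressed genes, 0.19, with 5.96, 6.21 and 4.96 FPKM in *Zfp90*fl/fl and 9.14, 5.65 and 5.53 FPKM in *Zfp90*ΔIEC. At the other end stood *Galnt1*, at 16.7, 16.1 and 17.8 against 16.8, 16.4 and 15.6 FPKM (difference -0.048), and *Galnt2*, at 7.12, 6.65 and 6.40 against 6.28, 7.34 and 6.30 FPKM (difference -0.018). The other expressed genes, *Galnt12*, *Galnt10*, *Galnt3* and *Galnt11*, had means of 35.4, 21.4, 15.3 and 2.22 FPKM. The remaining 9 GALNT genes had means of at most 0.605 FPKM. The highest of them, *Galntl6*, named after its values were seen, was at 0.420, 0.614 and 0.472 against 0.778, 0.665 and 0.681 FPKM, higher in every *Zfp90*ΔIEC sample (difference 0.19, unadjusted p = 0.0420, adjusted p = 0.473 by limma, without a filter on low values).

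None of the 10 expressed start genes had an unadjusted p under 0.05, and in none of them were the genotypes apart. The median difference was 0.063, with 8 of 10 genes above 0, where 4951 of all 11564 genes tested were. The median was -0.018 without *Zfp90*ΔIEC replicate 1, which was the highest sample in 8 of the 10 genes. The intervals of all 10 genes lay within 1 log2 unit, so that a difference of 2-fold or more lay outside each of them on this scale. The summed level was 224.5 ± 6.72 FPKM in *Zfp90*fl/fl and 239.3 ± 30.6 FPKM in *Zfp90*ΔIEC (SD, n = 3).

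All 6 core genes were expressed. *C1galt1*, which adds galactose to form core 1, and *C1galt1c1*, the chaperone (Cosmc) that it needs, ran at nearly equal levels. *C1galt1* was at 33.6, 33.7 and 34.6 FPKM in *Zfp90*fl/fl and at 43.5, 31.3 and 31.1 FPKM in *Zfp90*ΔIEC, and *C1galt1c1* at 32.2, 31.8 and 33.8 against 41.9, 32.9 and 33.1 FPKM. Their differences were 0.037 and 0.13 (adjusted p = 0.916 and 0.593 by limma), and both had the highest value in *Zfp90*ΔIEC replicate 1, without which they were -0.12 and 0.019.

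*Gcnt3*, the mucin-type enzyme that makes core 2 and core 4 branches, gave the smallest p of all members. It was at 27.1, 31.4 and 27.6 FPKM in *Zfp90*fl/fl and at 49.6, 48.2 and 37.7 FPKM in *Zfp90*ΔIEC, so that the lowest *Zfp90*ΔIEC sample stood above the highest *Zfp90*fl/fl sample. The means were 28.7 ± 2.33 and 45.2 ± 6.52 FPKM (SD, n = 3), and the difference was 0.63 on the log2 scale (standard error 0.115, 95% interval 0.36 to 0.90, adjusted p = 0.0873 by limma), which missed the threshold. Leaving out 1 sample at a time gave 0.56 to 0.75, with adjusted p between 0.0585 and 0.241, and without *Zfp90*ΔIEC replicate 1 it was 0.56. The gene (ENSMUSG00000032226) has 1 annotated transcript and lies on the minus strand at chr9:70031496-70038088 (GRCm38). Of the summed FPKM of the 6 core genes, *Gcnt3* took 26.5% to 29.7% in *Zfp90*fl/fl and 33.7% to 40.4% in *Zfp90*ΔIEC.

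**Figure D2:**
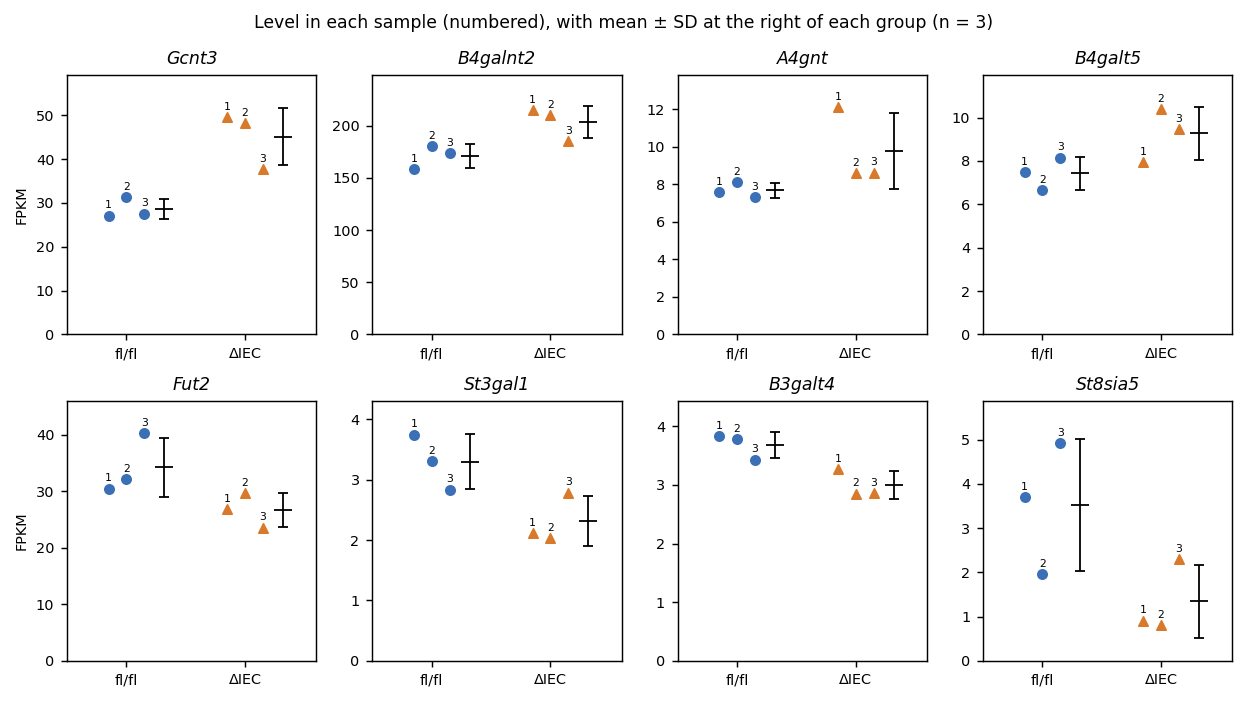
FPKM of 8 members in each sample (points numbered by replicate, vertical axes from 0), with mean ± SD of each genotype (n = 3) to the right of its points. *Gcnt3*, *B4galnt2* and *A4gnt* show all *Zfp90*ΔIEC samples above all *Zfp90*fl/fl samples, *Fut2*, *St3gal1* and *B3galt4* show them below, and in *B4galt5* and *St8sia5* the genotypes overlap.

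*B3gnt6*, the core 3 enzyme of the colon, was much lower than *C1galt1* at 3.10, 3.78 and 3.74 FPKM in *Zfp90*fl/fl and 7.23, 3.10 and 3.45 FPKM in *Zfp90*ΔIEC. The ratio of *B3gnt6* to *C1galt1*, which compete for the same GalNAc, was 0.0921, 0.112 and 0.108 in *Zfp90*fl/fl and 0.166, 0.0991 and 0.111 in *Zfp90*ΔIEC. Its log2 difference of 0.24 rested on replicate 1 of *Zfp90*ΔIEC and was 0.014 without it (two-sided exact permutation test, p = 0.5, adjusted p = 0.5 over 2 ratios). *Gcnt1*, the core 2 enzyme of leukocytes and other cells, was at 2.42, 2.60 and 2.40 against 2.97, 2.14 and 2.75 FPKM. The ratio of *Gcnt3* to *Gcnt1* was 11.2, 12.1 and 11.5 in *Zfp90*fl/fl and 16.7, 22.6 and 13.7 in *Zfp90*ΔIEC, a log2 difference of 0.58 without overlap. Its two-sided exact permutation p was 0.1, the smallest that 3 against 3 samples allow, and 0.2 adjusted over 2 ratios. *Gcnt4* was the lowest core gene, at 1.97, 2.50 and 2.00 against 1.75, 1.74 and 1.62 FPKM, lower in every *Zfp90*ΔIEC sample (difference -0.22, adjusted p = 0.314 by limma), and its difference was -0.14 without *Zfp90*fl/fl replicate 2.

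*Zfp90*ΔIEC replicate 1 was the highest sample in 5 of the 6 core genes. The same sample held 1010 FPKM of *Muc2*, against 440.2, 444.4 and 431.4 FPKM in *Zfp90*fl/fl and 593.1 and 464.5 FPKM in the other *Zfp90*ΔIEC samples, and 1026 FPKM of *Agr2*, an endoplasmic reticulum protein needed to make *Muc2*, against 540.8 to 710.7 FPKM in the other 5 samples. Of the 10 goblet markers, 5 were highest in this sample. *Clca1*, *Fcgbp* and *Tff3* were highest in *Zfp90*ΔIEC replicate 3, *Spdef* in *Zfp90*ΔIEC replicate 2 and *Retnlb* in *Zfp90*fl/fl replicate 2. *Retnlb* was at 27.8 FPKM in *Zfp90*ΔIEC replicate 1, below the 53.5 to 99.0 FPKM of *Zfp90*fl/fl. The summed level of the 10 goblet markers was 2147, 2630 and 2242 FPKM in *Zfp90*fl/fl and 3667, 2734 and 2945 FPKM in *Zfp90*ΔIEC, without overlap. Their part in the values of the start and core genes was not tested. The median difference of the core genes was 0.092 and was -0.050 without that sample.

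**Figure D3:**
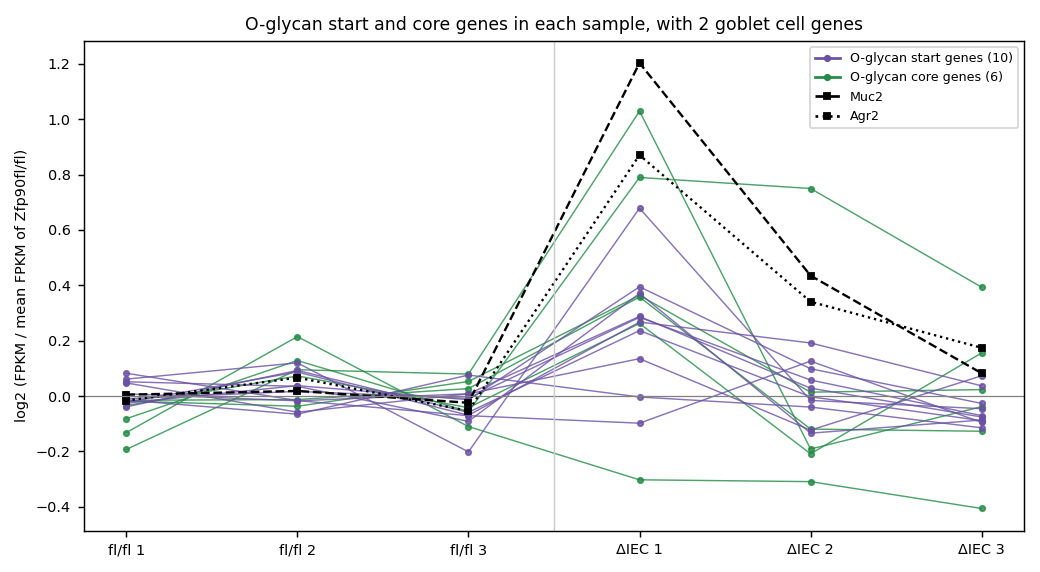
Level of the 10 O-glycan start genes (purple) and 6 core genes (green) in each sample, as log2 of FPKM over the mean of *Zfp90*fl/fl (vertical axis), with the goblet cell genes *Muc2* (dashed) and *Agr2* (dotted). In *Zfp90*ΔIEC replicate 1 most lines stand above 0 together with *Muc2* and *Agr2*, while in replicates 2 and 3 most return to near 0 and *Gcnt3* stays above the *Zfp90*fl/fl samples.

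Chain extension was the largest group, with 16 of 22 members expressed. *B3gnt3*, which extends core 1 with GlcNAc, was at 69.4, 74.7 and 74.6 FPKM in *Zfp90*fl/fl and at 67.6, 76.3 and 73.7 FPKM in *Zfp90*ΔIEC, a difference of -0.0078 with a 95% interval from -0.16 to 0.15. *B3gnt7*, an enzyme of sulfated poly-N-acetyllactosamine chains, was at 73.3, 56.6 and 71.9 against 64.0, 49.8 and 65.4 FPKM (difference -0.17, adjusted p = 0.628 by limma). In both genotypes its lowest value was in replicate 2, and the difference was -0.045 without *Zfp90*ΔIEC replicate 2 and -0.29 without *Zfp90*fl/fl replicate 2. With *B3galt5*, which makes type 1 chains and was at 48.0 to 74.5 FPKM, these genes led the group, and *B4galt1* followed at 29.6 to 39.4 FPKM.

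*B3gnt2*, the main enzyme of poly-N-acetyllactosamine (ENSMUSG00000051650, minus strand, chr11:22759738-22860961, GRCm38), gave the largest difference of all members, which rested on 1 sample. It was at 18.5, 1.91 and 18.6 FPKM in *Zfp90*fl/fl and at 20.5, 21.1 and 21.9 FPKM in *Zfp90*ΔIEC, a difference of 1.10 (standard error 0.699, adjusted p = 0.527 by limma) that was 0.18 without *Zfp90*fl/fl replicate 2. In that sample *Gm28048*, a gene that the annotation joins from exons of *Commd1* and *B3gnt2*, was listed at 19.4 FPKM, against 0.00335 to 0.0136 FPKM in the other 5 samples. Its transcript has 3 exons and 2746 bases, of which 2449 (89.2%) lie within exons of *B3gnt2*, and it holds all 1191 coding bases of the main *B3gnt2* transcript. Their shared and unlike parts are printed because they show how little sequence tells the genes apart. Each line gives the last 12 bases of the exon before the shared last exon in lower case and the first 27 bases of the shared exon in capitals, 5′ to 3′ on the minus strand, from the GENCODE M21 transcripts (GRCm38). The start codon of *B3gnt2* follows after 9 bases of the capitals.
Gm28048: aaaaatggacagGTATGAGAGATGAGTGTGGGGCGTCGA
B3gnt2: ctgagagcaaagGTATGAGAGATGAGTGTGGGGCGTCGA
The exon before the junction lies at chr11:22956411-22956692 in *Gm28048* and at chr11:22860218-22860488 in *B3gnt2*, and the last exons reach from 22834744 and 22834865 to 22837195. Summed over both genes, the level was 18.6, 21.3 and 18.7 FPKM in *Zfp90*fl/fl and 20.5, 21.1 and 21.9 FPKM in *Zfp90*ΔIEC, and the difference was 0.12 (adjusted p = 0.499 by limma), a sum chosen after the values were seen. *Commd1* itself was at 2.78 to 3.48 FPKM, with its value in *Zfp90*fl/fl replicate 2 at 2.82.

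**Figure D4:**
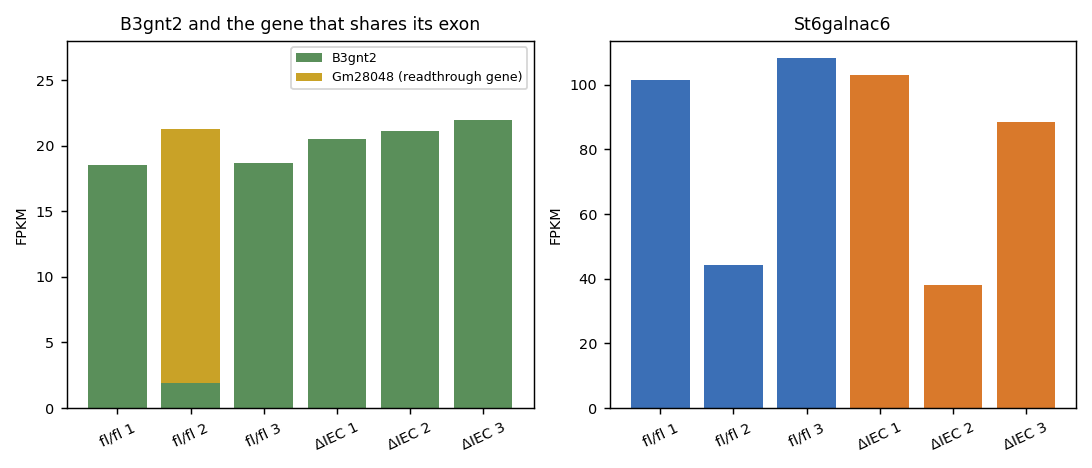
Left, FPKM of *B3gnt2* (green) and of *Gm28048*, the gene joined from *Commd1* and *B3gnt2* exons (yellow), stacked in each sample. Right, FPKM of *St6galnac6* in *Zfp90*fl/fl (blue) and *Zfp90*ΔIEC (orange). The *B3gnt2* bar falls to 1.91 FPKM in *Zfp90*fl/fl replicate 2 while the stack stays at 21.3 FPKM, and *St6galnac6* stands at 44.2 and 38.0 FPKM in replicate 2 of the genotypes against 88.5 to 108 FPKM elsewhere.

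Of the 16 expressed extension genes, 4 had values apart between the genotypes, *B3gnt2* among them, which is near the share of 21.3% over all genes. Summed with *Gm28048*, the values of *B3gnt2* overlapped, at 18.6 to 21.3 FPKM in *Zfp90*fl/fl and 20.5 to 21.9 FPKM in *Zfp90*ΔIEC. *B3gnt9* was at 1.05, 0.907 and 0.722 FPKM in *Zfp90*fl/fl and at 1.78, 1.61 and 1.09 FPKM in *Zfp90*ΔIEC (difference 0.39, adjusted p = 0.249 by limma). It overlaps *D230025D16Rik* in the annotation, which was at 2.19 to 3.28 FPKM with hardly any difference in mean (2.86 and 2.83), and reads of the overlap could have been counted to either. *B3galt6*, a galactosyltransferase of the proteoglycan linkage region, was at 1.14, 1.31 and 1.16 against 0.719, 0.942 and 0.807 FPKM (difference -0.27, adjusted p = 0.209). *B3galt4*, which makes the ganglioside GM1, was at 3.83, 3.79 and 3.43 against 3.28, 2.85 and 2.86 FPKM (difference -0.23, adjusted p = 0.233), and both galactosyltransferases were lower in every *Zfp90*ΔIEC sample.

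*B3gnt5*, which starts the lacto-series glycolipids, had the most negative difference of the group at -0.53 (95% interval -1.04 to -0.014, adjusted p = 0.330 by limma). Its values of 5.33, 3.47 and 3.05 FPKM in *Zfp90*fl/fl and 2.31, 1.68 and 3.30 FPKM in *Zfp90*ΔIEC overlapped, and the difference was -0.34 without *Zfp90*fl/fl replicate 1. *B4galt5*, the main enzyme of lactosylceramide, was at 7.49, 6.65 and 8.15 against 7.96, 10.4 and 9.48 FPKM (difference 0.28, adjusted p = 0.306) and overlapped as well. The median difference of the extension genes was -0.022, and 0.0031 without *Zfp90*ΔIEC replicate 1. *B4galt5* and *B3galt4* were named after their values were seen.

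All 5 genes of terminal GalNAc and GlcNAc were expressed. *B4galnt2*, the enzyme of the Sda blood group antigen of the colon (ENSMUSG00000013418, minus strand, chr11:95865943-95914891, GRCm38), took 74.2% to 78.0% of their summed level in every sample. It was at 158.6, 180.2 and 174.0 FPKM in *Zfp90*fl/fl and at 215.0, 209.7 and 185.4 FPKM in *Zfp90*ΔIEC, higher in every *Zfp90*ΔIEC sample. The means were 170.9 ± 11.1 and 203.4 ± 15.8 FPKM (SD, n = 3), and the difference was 0.25 (95% interval 0.060 to 0.44, adjusted p = 0.238 by limma).

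*A4gnt*, which caps O-glycans of gland mucins with GlcNAc, was at 7.59, 8.10 and 7.31 FPKM in *Zfp90*fl/fl and at 12.1, 8.59 and 8.61 FPKM in *Zfp90*ΔIEC. Its values did not overlap, and the difference of 0.30 (adjusted p = 0.346 by limma) was 0.15 without *Zfp90*ΔIEC replicate 1. *B4galnt1*, the GM2 ganglioside synthase, was at 29.0, 39.9 and 32.4 against 34.7, 42.3 and 30.9 FPKM, with the highest value of each genotype in replicate 2. *B4galnt3*, which makes GalNAc-GlcNAc ends, was at 15.1, 13.8 and 14.0 against 12.6, 10.8 and 14.0 FPKM (difference -0.19, adjusted p = 0.420), which was -0.095 without *Zfp90*ΔIEC replicate 2. The median difference of this step was 0.14, or 0.050 without *Zfp90*ΔIEC replicate 2 and 0.22 without *Zfp90*ΔIEC replicate 3. Of its 5 genes 4 stood above 0, where 4951 of all 11564 genes tested did.

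Of the 5 expressed fucosyltransferases of 8, 4 had a difference below 0, where 6613 of all 11564 genes tested did. The median was -0.16, or -0.081 without *Zfp90*ΔIEC replicate 2. *Fut2*, the secretor enzyme that adds the terminal fucose of H antigens in the gut (ENSMUSG00000055978, minus strand, chr7:45648591-45666394, GRCm38), was at 30.5, 32.2 and 40.3 FPKM in *Zfp90*fl/fl and at 26.8, 29.7 and 23.6 FPKM in *Zfp90*ΔIEC. All *Zfp90*ΔIEC values lay below the lowest *Zfp90*fl/fl value, by little. The means were 34.3 ± 5.23 and 26.7 ± 3.07 FPKM (SD, n = 3), and the difference was -0.35 (95% interval -0.64 to -0.051, adjusted p = 0.279 by limma), or -0.23 without *Zfp90*fl/fl replicate 3. *Fut1*, its relative of the same linkage, was below the filter at 0.388 to 0.597 FPKM in all 6 samples.

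*Fut4*, an enzyme of Lewis x ends, was at 18.2, 17.2 and 17.6 FPKM in *Zfp90*fl/fl and at 21.1, 15.9 and 18.7 FPKM in *Zfp90*ΔIEC, around the *Zfp90*fl/fl values. *Fut8*, which adds the core fucose of N-glycans, was at 14.1, 14.6 and 16.4 against 14.6, 11.2 and 13.7 FPKM (difference -0.19, adjusted p = 0.468 by limma), which was -0.081 without *Zfp90*ΔIEC replicate 2. *Fut11* was lower in every *Zfp90*ΔIEC sample at 2.21, 2.31 and 2.42 against 1.93, 1.84 and 2.11 FPKM (difference -0.16, adjusted p = 0.340), and *Fut9* was at 1.11 to 1.78 FPKM. *Fut11* was named after its values were seen. The summed level of the 5 expressed fucose genes was 66.8, 67.7 and 78.2 FPKM in *Zfp90*fl/fl and 66.0, 59.7 and 59.8 FPKM in *Zfp90*ΔIEC. The groups did not overlap, by little (66.8 against 66.0 FPKM). *Fut2* alone took 39.2% to 51.2% of the summed level of all 8 fucose genes.

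Sialyltransferases held 11 expressed genes of 21. *St6galnac6*, which puts sialic acid on gangliosides and Lewis-type chains (ENSMUSG00000026811, plus strand, chr2:32599709-32620806, GRCm38), was the highest at 101.6, 44.2 and 108 FPKM in *Zfp90*fl/fl and at 103, 38.0 and 88.5 FPKM in *Zfp90*ΔIEC. Replicate 2 was the low sample in both genotypes, and the gene has 13 annotated transcripts. Its difference of -0.16 therefore carried an interval from -1.25 to 0.93. *St3gal4*, which adds sialic acid to N-acetyllactosamine ends, was at 57.2, 53.5 and 66.2 against 42.6, 54.1 and 69.0 FPKM, with the lowest and the highest sample both in *Zfp90*ΔIEC.

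*St8sia5*, an enzyme of polysialylated gangliosides on chromosome 18, had the most negative difference of all members at -0.95 (95% interval -1.69 to -0.21, adjusted p = 0.246 by limma). It was at 3.70, 1.96 and 4.92 FPKM in *Zfp90*fl/fl and at 0.906, 0.812 and 2.30 FPKM in *Zfp90*ΔIEC, where replicate 3 lay above the lowest *Zfp90*fl/fl sample. *St3gal5*, which makes the ganglioside GM3, had the most positive of the group at 0.66 (95% interval 0.048 to 1.27, adjusted p = 0.313). Its values of 2.17, 2.18 and 3.47 FPKM in *Zfp90*fl/fl and 2.97, 4.62 and 6.92 FPKM in *Zfp90*ΔIEC overlapped, and the difference was 0.41 without *Zfp90*ΔIEC replicate 3. Within each genotype replicate 3 was the highest sample in both of these genes.

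*St3gal1*, which caps core 1 with sialic acid, was lower in every *Zfp90*ΔIEC sample, at 3.75, 3.30 and 2.83 FPKM in *Zfp90*fl/fl and 2.12, 2.03 and 2.79 FPKM in *Zfp90*ΔIEC (difference -0.38, adjusted p = 0.221 by limma). It is also expressed by leukocytes, whose 18 markers all had lower means in *Zfp90*ΔIEC, although only 2 of them reached the level set for expression. Of those below it, *Ptprc* (CD45) was at 0.721 ± 0.157 against 0.371 ± 0.0875 FPKM (SD, n = 3, adjusted p = 0.318 by limma, without a filter on low values). In the same fit *Itgam*, named after its values were seen, was at 0.960 ± 0.0420 against 0.154 ± 0.0242 FPKM (SD, n = 3). It alone of the 18 markers passed the threshold (adjusted p = 0.0199 by limma). The part of leukocytes in *St3gal1* was not tested. *St6gal1*, the N-glycan sialyltransferase, was at 10.3, 7.98 and 9.38 against 12.4, 7.19 and 8.32 FPKM (difference -0.013). *St3gal3* was at 10.7 to 15.8 FPKM in *Zfp90*fl/fl and at 12.8 to 17.5 FPKM in *Zfp90*ΔIEC. *St6galnac1*, the enzyme of sialyl-Tn, was listed at 0.0447, 0.0632 and 0 FPKM in *Zfp90*fl/fl and at 0, 0.0146 and 0.0262 FPKM in *Zfp90*ΔIEC, so that no ratio to *C1galt1* was formed. *St6galnac2* is listed under a main identifier at 7.30 to 9.40 FPKM and under a second, nested one at 1.53 to 2.75 FPKM, which share exons and whose division of fragments is uncertain.

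The N-glycan branching genes held 7 expressed members of 10, none with an unadjusted p under 0.05 or with values apart. *Mgat4b*, which starts a GlcNAc branch on the core mannose arm, was at 69.3, 80.0 and 72.5 FPKM in *Zfp90*fl/fl and at 68.2, 74.9 and 67.9 FPKM in *Zfp90*ΔIEC (difference -0.071, 95% interval -0.25 to 0.10), or -0.013 without *Zfp90*fl/fl replicate 2. Its relative *Mgat4c* was at 39.5, 52.4 and 52.5 against 37.0, 49.4 and 37.3 FPKM (difference -0.22, adjusted p = 0.556 by limma), which was -0.35 without *Zfp90*ΔIEC replicate 2 or without *Zfp90*fl/fl replicate 1, and *Mgat4a* was at 24.6 to 32.7 FPKM. *Mgat3*, the enzyme of the bisecting GlcNAc, was at 26.5, 24.8 and 24.6 against 28.9, 23.8 and 24.7 FPKM. *Mgat1*, the enzyme of the first GlcNAc of complex N-glycans, was the most scattered, at 6.58, 2.86 and 11.9 FPKM in *Zfp90*fl/fl against 5.62, 6.68 and 7.22 FPKM in *Zfp90*ΔIEC, and it also has 13 annotated transcripts. The interval of its difference ran from -0.88 to 0.98.

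**Figure D5:**
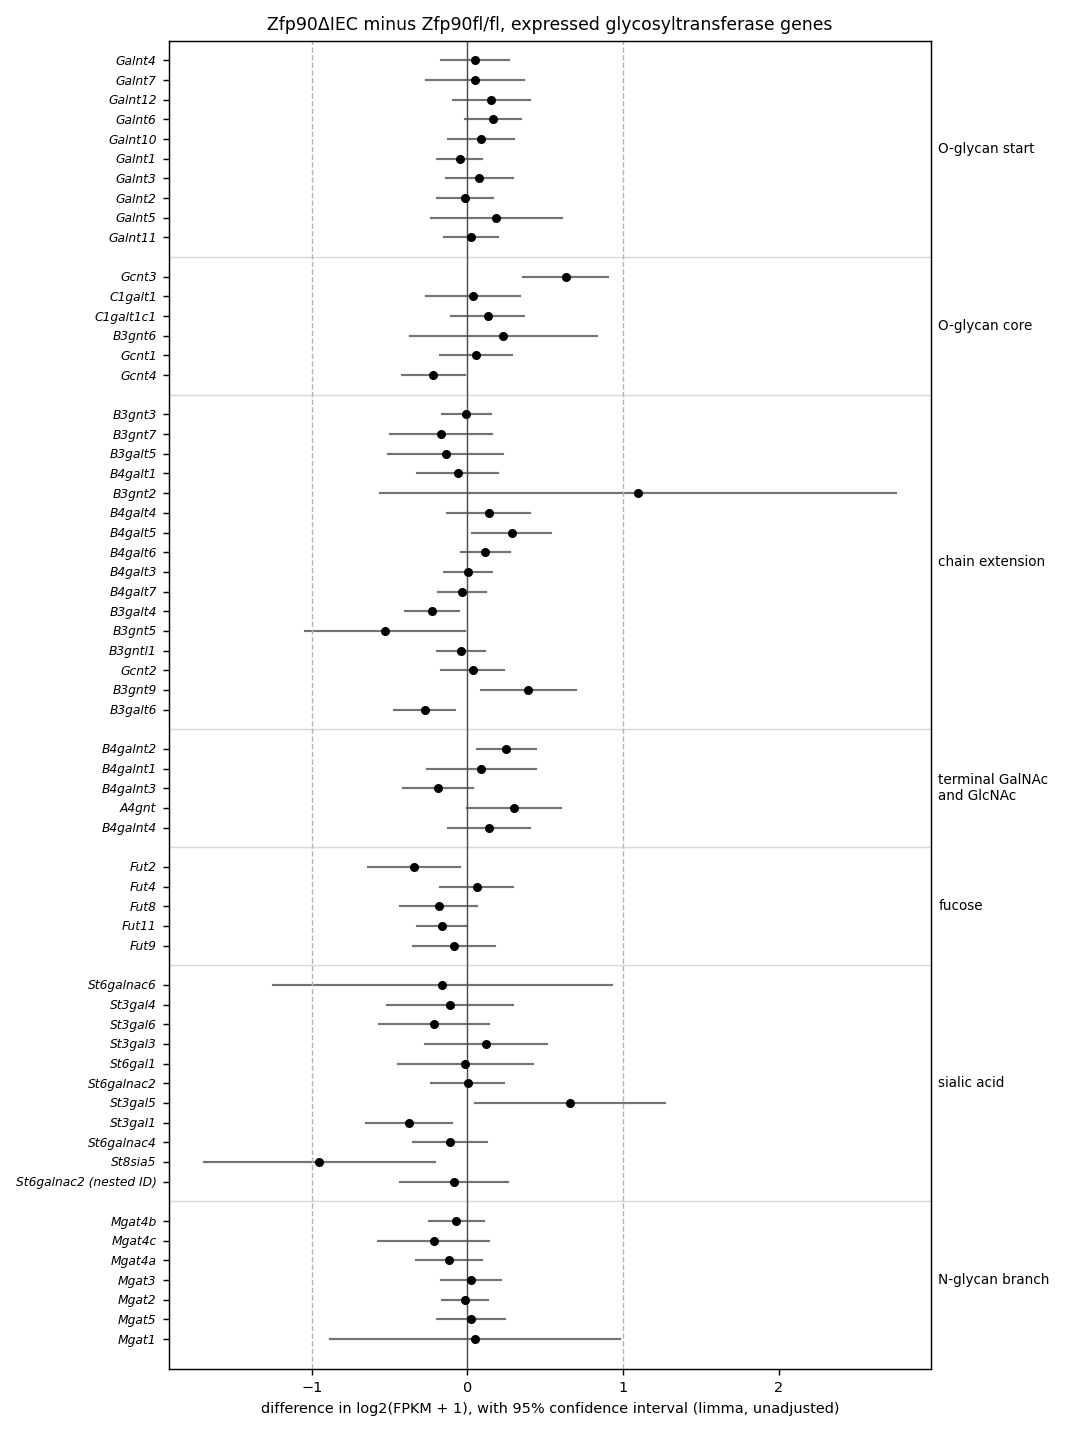
Difference of the 60 expressed members between the genotypes (points, *Zfp90*ΔIEC minus *Zfp90*fl/fl in log2(FPKM + 1), limma) with unadjusted 95% confidence intervals (bars), by step. Most intervals cross 0 and 55 of 60 lie within the dashed lines at 1 log2 unit, whereas *B3gnt2*, *St6galnac6*, *St3gal5*, *St8sia5* and *B3gnt5* reach past them.

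Genes on which these enzymes depend were counted in the same way. Of 28 genes of sugar nucleotide supply 27 were tested, none passed the threshold, and 4 (14.8%) had an unadjusted p under 0.05, a share near the 14.6% of all genes. The median difference over the list was 0.050. The 4 genes, named after their values were seen and all higher in *Zfp90*ΔIEC, were *Ugp2*, which makes UDP-glucose, at 61.8 ± 1.45 against 69.7 ± 2.95 FPKM, *Slc35d1*, a nucleotide sugar transporter, at 6.05 ± 0.360 against 7.64 ± 0.750 FPKM, *Galk1*, the galactokinase, at 5.67 ± 0.512 against 6.89 ± 0.678 FPKM, and *Cmah*, the hydroxylase of CMP-sialic acid, at 2.25 ± 0.251 against 5.30 ± 3.34 FPKM (SD, n = 3). *Cmah* was at 9.02, 4.33 and 2.55 FPKM in *Zfp90*ΔIEC, and its difference of 0.83 was 0.43 without *Zfp90*ΔIEC replicate 1. Among 14 tested genes of other glycosyltransferases and 15 of sulfotransferases and glycosidases, none passed the threshold, and 4 of the 29 (13.8%) had an unadjusted p under 0.05. Their median differences were -0.0078 and 0.027, and the first was 0.039 without *Zfp90*ΔIEC replicate 2 while the second was -0.041 without *Zfp90*ΔIEC replicate 1.

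Of 12 mucin genes that carry the O-glycans 6 were tested and none passed the threshold. *Muc13*, a membrane mucin of the colon, was at 650.7, 644.5 and 699.3 FPKM in *Zfp90*fl/fl and at 484.2, 385.3 and 546.1 FPKM in *Zfp90*ΔIEC (difference -0.51, adjusted p = 0.137 by limma). *Muc1*, a membrane mucin at a low level here, was at 2.71, 3.42 and 3.32 against 1.32, 1.27 and 2.15 FPKM (difference -0.70, adjusted p = 0.110). Values did not overlap in 3 of the 6 genes tested, where the share over all genes was 21.3%. Of these, *Muc13* and *Muc1* were lower in *Zfp90*ΔIEC (against 12.6% of all genes) and *Muc2* was higher (against 8.73%). *Muc3*, the highest mucin, listed apart from its relative *Muc3a*, was at 753.5, 763.8 and 910.8 against 900.8, 856.6 and 914.2 FPKM, and *Muc2* had a difference of 0.57 (adjusted p = 0.368) that was 0.26 without *Zfp90*ΔIEC replicate 1.

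Markers of other epithelial states stood beside these values. All 6 genes of dividing cells had higher values in every *Zfp90*ΔIEC sample, where the share over all genes was 8.73%. Of these, *Mki67*, a proliferation marker, passed the threshold, at 22.3 ± 0.452 against 30.0 ± 0.772 FPKM (SD, n = 3, adjusted p = 0.0478 by limma). The call on *Mki67* was lost in each of the 6 fits that left out 1 sample (adjusted p = 0.0641 to 0.163). Among 9 markers of absorptive colonocytes 5 were higher without overlap (against 8.73% of all genes), while *Ceacam20*, *Guca2b* and *Ms4a8a* had the lower mean in *Zfp90*ΔIEC, with overlapping values. Their summed level was 5298 to 7057 FPKM in *Zfp90*fl/fl and 7973 to 12010 FPKM in *Zfp90*ΔIEC, of which *Car1* alone gave 4033 to 5628 and 6349 to 10060 FPKM. Their part in the differences of the glycosyltransferases was not tested.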

How the data were processed

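RNA-seq of colon epithelium was analysed in 6 samples, grouped by the titles of the labels (for 2 *Zfp90*ΔIEC samples the genotype label names another gene number). The authors deposited 1 FPKM value per gene and sample. The labels name FastQC, STAR 2.5, Cuffnorm and mm9 among others, whereas the methods name TopHat, Cuffdiff and a human genome, so that the counter behind the FPKM values and the handling of strand are uncertain. The files list mouse identifiers, 52403 of 52550 with a symbol in GENCODE M21 (GRCm38), and hold no coordinates, so that positions are those of this annotation. Of 93 fitting symbols, 2 antisense genes were left out as not protein-coding.

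From the deposited FPKM values, log2(FPKM + 1) was tested with limma 3.58.1 (R 4.3.3, intensity trend, no block) over the 11564 genes that reached 1 FPKM in 3 or more samples, with Benjamini-Hochberg adjustment and a threshold of 0.05. A fold on this scale understates the change of low genes. Members below the filter and *Zfp90* take values from the fit without a filter. The ratios of 2 genes were compared with a two-sided exact permutation test in Python 3.11.15 (scipy 1.17.1). A further planned ratio, of *St6galnac1* to *C1galt1*, was not formed, since that gene was listed at 0 in 2 samples, and the adjustment covers 2 ratios. Tables and figures were made with pandas 2.3.3, numpy 2.4.6 and matplotlib 3.10.9.

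The fit was also run on simulated data of independent noise in which 200 genes were changed 2-fold. It recovered 88.5% of them, with 6 false calls. Changes in genes near 1 FPKM, smaller changes and effects shared by replicates were not simulated. Depth is not given by the files. Low values of genes with 1 transcript rose in steps that put each sample at an estimated 25.8 to 28.6 M fragments, and 63.0% to 70.6% of these values came within 0.1 of a whole step, so reads were not recovered and no count test was run.

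The members, steps and lists were chosen with earlier results of these data known. Genes named are, within each step, the 2 of highest mean, the 2 most positive and the 2 most negative differences, any with an adjusted p under 0.05, and *C1galt1*, *C1galt1c1*, *B3gnt6*, *Gcnt1*, *Gcnt3*, *Fut1*, *Fut2*, *St6galnac1*, *St6gal1*, *B4galnt2*, *Zfp90* and *Muc2*. Alternatives were median ratio scaling, quantile normalization, no filter, a pseudocount of 0.1, leaving out each sample and the replicate number as a block, and, added after the values were seen, *Gm28048* summed with *B3gnt2*. The p-values measure the spread between these samples, and since mice were housed by genotype, cage and genotype cannot be told apart.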

Additional observations from a re-analysis of the deposited data

How the results depend on the processing

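No member passed the threshold under any of the 12 other fits, in which the smallest adjusted p was 0.0585 (limma, *Gcnt3* without *Zfp90*ΔIEC replicate 3). Neither ratio changed its direction, and since 3 against 3 samples allow no p under 0.1, none could pass the threshold. The count of all genes past it, 23, was 15 with no filter, 13 with a pseudocount of 0.1, 47 with the replicate block and 10 to 21 when 1 sample was left out. The cause was not tested. With the replicate number as a block, which cannot move a difference in this design, the exact p of the ratios was 0.75 and 0.25 (the smallest possible there), and no call on a member changed. Samples of the same number correlated at 0.194, 0.110 and 0.0782 in their deviations from the group means, and 2 of 3 passed 0.1. Samples of different numbers correlated at -0.128 to 0.0137. Whether the numbers pair the samples was not tested, and the fit without a block was kept. With the block, 12 members had an unadjusted p under 0.05 (limma), against 13 without it. The adjusted p of *St8sia5* was then 0.0884 against 0.246, and that of *Fut2* 0.318 against 0.279 (limma). Leaving out 1 sample gave differences of 0.014 to 0.39 for the ratio of *B3gnt6* to *C1galt1* and of 0.38 to 0.74 for *Gcnt3* to *Gcnt1*. The ratio with *St6galnac1* and its alternatives were not run.

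For the 41 named genes, 79 values under the replicate block or without a filter equal the reported ones by construction. Of the other 370 values, 335 kept their direction and 35 changed it, in 17 genes. Median ratio scaling moved all expressed members up, by 0.011 to 0.023, and so turned *Galnt2* to 0.0021, *B3gnt3* to 0.015 and *St6gal1* to 0.0075, and quantile normalization turned *St6gal1* to 0.0029. Leaving out 1 sample gave ranges of -0.043 to 0.12 for *Galnt4*, -0.11 to 0.14 for *Galnt7*, -0.021 to 0.30 for *Galnt5*, -0.082 to 0.019 for *Galnt2*, -0.12 to 0.12 for *C1galt1*, -0.085 to 0.42 for *B3gnt6*, -0.016 to 0.15 for *Gcnt1*, -0.045 to 0.041 for *B3gnt3*, -0.031 to 0.21 for *B4galnt1*, -0.032 to 0.16 for *Fut4*, -0.031 to 0.070 for *Fut1*, -0.57 to 0.27 for *St6galnac6*, -0.29 to 0.056 for *St3gal4*, -0.023 to 0.25 for *St3gal3*, -0.22 to 0.14 for *St6gal1*, -0.41 to 0.47 for *Mgat1* and -0.058 to 0.076 for *Mgat3*. Depth limits the genes near the filter most.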

Other observations

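Among genes of sulfation and of other sugar transfer, 4 of 29 (13.8%) had an unadjusted p under 0.05, a share near the 14.6% of all genes, and none passed the adjusted threshold. They are named here after their values were seen. *Papss2*, which makes the sulfate donor used on colonic mucins, was at 176.5 ± 16.1 FPKM in *Zfp90*fl/fl and at 233.7 ± 42.2 FPKM in *Zfp90*ΔIEC (SD, n = 3, adjusted p = 0.279 by limma), with overlapping values. *Ogt*, which attaches single GlcNAc residues to proteins inside the cell, was at 16.9 ± 1.15 against 14.0 ± 1.08 FPKM (adjusted p = 0.213). *Ugt8a*, which makes galactosylceramide, was at 0.757 ± 0.0318 against 1.61 ± 0.391 FPKM (adjusted p = 0.118). *Poglut1*, which attaches glucose to EGF-like repeats, was at 3.34 ± 0.0472 against 2.86 ± 0.234 FPKM (adjusted p = 0.320). The goblet cell gene *Retnlb* went the other way from *Muc2* and *Agr2*, at 78.2 ± 23.0 against 36.3 ± 20.4 FPKM (adjusted p = 0.243), with overlapping values.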
